A study of Mus musculus with 2 samples.

Results

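Bone morphogenetic protein (BMP) signalling was read from 10 genes, namely the ligands Bmp2, Bmp4, Bmp5 and Bmp7, the receptors Bmpr1a, Bmpr1b and Bmpr2, and the inhibitors Grem1, Nog and Smad6. They were chosen by name, and every probe set that the platform annotation pairs with exactly 1 of these symbols was taken, which gave 23 of the 34945 probe sets with 1 gene and 10 of 18193 genes. The study compared uterine stromal cells of Hand2 Floxed control mice with those of Hand2-null mice on day 4 of pregnancy, when the uterus is being prepared for implantation. Hand2 encodes a transcription factor of the uterine stroma, and the Hand2-null mice carry the floxed allele together with PRcre, in which Cre recombinase follows the progesterone receptor and so is not limited to stromal cells. The mice of both groups had a mixed C57BL/6 and SV129 background, and the labels list Prcre in the background of both.

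RNA was pooled over mice, and 1 array was hybridized for each genotype. The series design gives 5 mice per genotype and the extraction protocol 4. There was thus no replicate, no test and no error of a difference, and each value compares these 2 pools. In bulk RNA of this kind, fewer cells of a type and less RNA per cell cannot be told apart.

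BMP ligands are secreted dimers that bring together type I receptors, such as BMPR1A and BMPR1B, and the type II receptor BMPR2, which are serine/threonine kinases. The activated receptors phosphorylate SMAD1, SMAD5 and SMAD9, which enter the nucleus with SMAD4 and switch on targets such as the Id genes. Noggin and gremlin 1 bind the ligands outside the cell, whereas SMAD6 is an inhibitory SMAD that acts inside it. In the mouse uterus, BMP2 made by the stroma is needed for decidualization, the change of stromal cells into the cells that support the implanted embryo, and conditional loss of BMP7, BMPR1A or BMPR2 also harms pregnancy.

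A promoter window of 300 bases, 250 before the start of the gene and 50 after it, was held in the RefSeq table (GRCm38.p6) for 7 of the 10 genes, with 9 windows in all. Bmp2, Bmp7 and Nog had none. The windows of Bmp4, the ligand with the largest difference between the arrays, and of Smad6, the measured gene of the 10 that is itself a target of the pathway, are shown 5' to 3' with each match to the E-box CANNTG in capitals. E-boxes are the sites of basic helix-loop-helix factors, the class to which HAND2 belongs. The Bmp4 window is chr14:46390620-46390919 on the minus strand, and the Smad6 window is chr9:64022010-64022309 on the minus strand.
Bmp4: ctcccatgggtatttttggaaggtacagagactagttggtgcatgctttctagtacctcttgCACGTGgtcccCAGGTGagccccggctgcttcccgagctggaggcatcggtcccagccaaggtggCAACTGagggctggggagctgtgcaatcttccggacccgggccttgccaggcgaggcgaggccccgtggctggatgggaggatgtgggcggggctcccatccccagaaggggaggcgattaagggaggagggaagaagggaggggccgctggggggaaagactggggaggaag
Smad6: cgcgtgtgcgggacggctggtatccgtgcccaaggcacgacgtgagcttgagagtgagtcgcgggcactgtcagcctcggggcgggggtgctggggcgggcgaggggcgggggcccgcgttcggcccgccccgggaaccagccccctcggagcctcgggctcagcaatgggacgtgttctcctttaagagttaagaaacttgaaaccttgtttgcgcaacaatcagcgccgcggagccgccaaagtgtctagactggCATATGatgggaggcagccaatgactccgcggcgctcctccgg

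The Bmp4 window held 3 E-boxes, whose first bases lie at -188, -177 and -123 from the start site. The Smad6 window held 1, at base 8 after the start. Of the 9 windows, 4 held at least 1 match on either strand, those of Bmp4 and Smad6 and the others of Bmpr1b. Among all 32851 windows 72.3% did, and 17.6% held 3 or more, so E-boxes in such windows are common. The form CATCTG, which is also counted as CANNTG, was found in 1 of the 9 windows, of Bmpr1b, against 17.2% of all windows. The element GGCGCC, bound by Smads in GC-rich promoters, was found in 1 window each of Bmpr1a, Bmpr2 and Grem1, against 11.9% of all windows, and in neither window printed here. A match says only that the letters are present.

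Values are MAS5 signals, an arbitrary linear brightness, and the floor was set at the 60th percentile of each array, which was 64.2 in the control and 67.5 in the Hand2-null pool. A probe set that reached the floor in either pool is called measured here, as were 10376 genes. Of the 23 BMP probe sets, 11 were measured, all of them in both arrays, and 12 were under the floor in both. Thus 6 genes were measured (Bmp2, Bmp4, Bmp7, Bmpr1a, Bmpr2 and Smad6) and 4 were not (Bmp5, Bmpr1b, Grem1 and Nog). As no measured BMP probe set lay under the floor in 1 pool only, every ratio given for the 10 genes compares a pair of measured signals. Paired signals are given with the control pool first, and a log2 ratio is that of Hand2-null over control, so a positive one means a higher signal without Hand2. In Hand2 itself, which checks the labels, the bright probe set read 1545 in the control pool, whereas in the Hand2-null pool it was under the floor at 38.5.

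**Figure D1:**
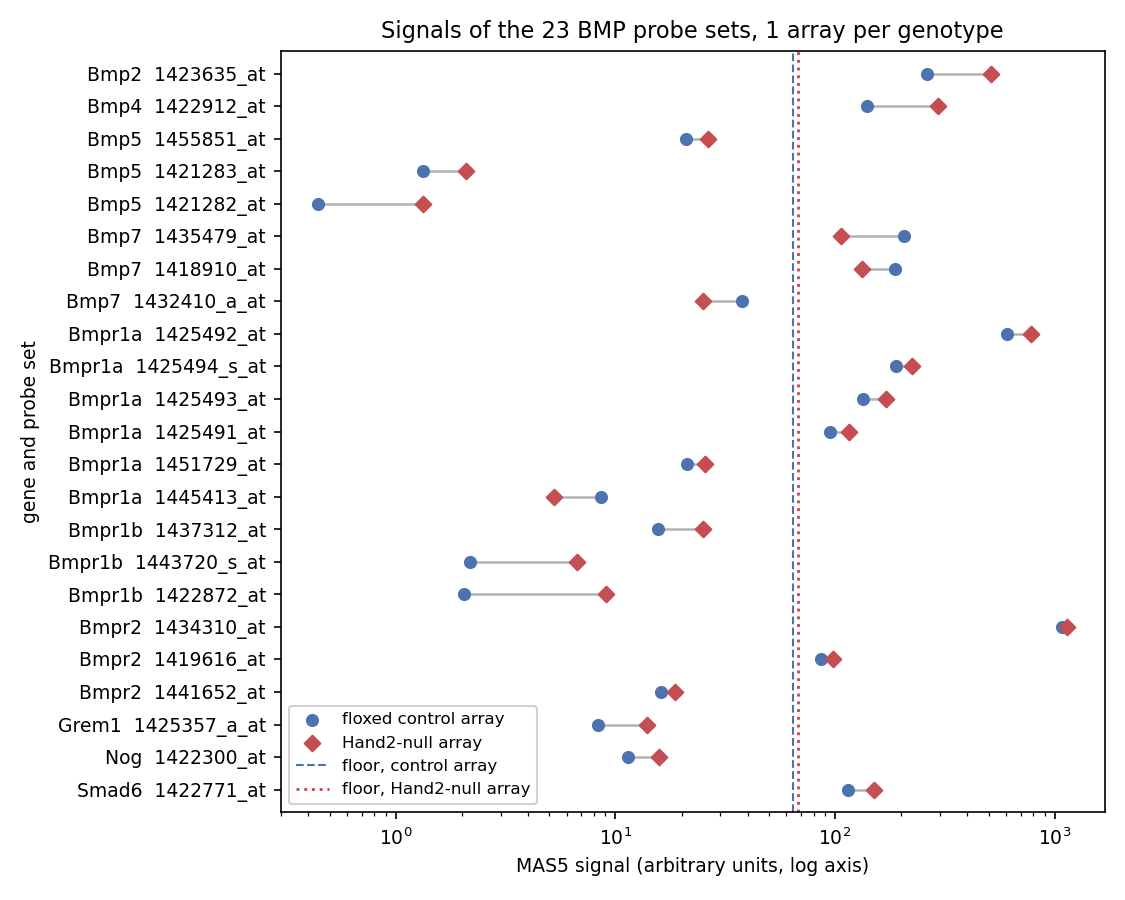
Each row is 1 of the 23 BMP probe sets, the horizontal log axis gives its MAS5 signal, and the circle and diamond stand for the control and the Hand2-null array. Vertical lines mark the floors of 64.2 and 67.5, and the 12 probe sets to their left, among them all those of Bmp5, Bmpr1b, Grem1 and Nog, were at 37.7 or lower.

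Bmp2 and Bmp4 had higher signals in the Hand2-null pool and Bmp7 lower ones, while the measured receptors and Smad6 were higher by smaller amounts. Bmp4 was the 1 measured member of 6 that was at least 2-fold higher, where 1.99% of all measured genes were, and 0 of 6 were at least 2-fold lower, against 0.742% of all genes. With a difference of 1.5-fold instead, Bmp2 and Bmp4 were higher, where 6.21% of genes were, and 0 of 6 were lower, against 3.34%. In all, 5 of 6 members were higher by any amount, against 44.7% of measured genes, and 1 was lower, against 55.3%. Their median log2 ratio was 0.38 against -0.03 for all genes. With 6 genes these counts and medians are a description of the list.

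Bmp2, the ligand of decidualization, had a signal of 262 in the control pool and 510 in the Hand2-null pool. It was 1.94-fold higher, a log2 ratio of 0.96, which places it just under the 2-fold limit. Both signals stood well clear of the floor, at 4.08 and 7.56 times it. A ratio at least as high was found in 237 genes, or 2.28% of all measured genes, and in 2.16% of the genes in the same quartile of signal. The gene is represented by 1 probe set, 1423635_at, so no second probe set tells how steady the ratio is.

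Bmp4, a close relative of Bmp2 that binds the same receptors, had signals of 139 and 293. The difference was 2.11-fold, a log2 ratio of 1.07, and 1.63% of measured genes had a ratio as high or higher. It too rests on 1 probe set, 1422912_at. The control signal was 2.17 times the floor, and with the floor raised to the 75th percentile or a pseudo-signal equal to the floor added, the log2 ratio was 0.85 and 0.83, which ends the 2-fold call. Bmp2 and Bmp4 therefore lay on either side of the 2-fold limit with log2 ratios that differed by less than the standard deviation of 0.19 between probe sets of a gene.

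Bmp7, a ligand of the other main BMP subgroup, was lower in the Hand2-null pool by both of its measured probe sets. The signals of 1418910_at were 187 and 132, or 1.42-fold lower with a log2 ratio of -0.50. Those of 1435479_at were 205 and 107, or 1.92-fold lower with a log2 ratio of -0.94. Averaged over both, the log2 ratio was -0.72, which is past 1.5-fold, whereas the probe set with the higher mean signal is not. The third, 1432410_a_at, was under the floor at 37.7 and 25.1. Among measured genes 5.10% had a ratio as low as that of 1418910_at or lower, and the log2 ratios of Bmp2 and Bmp4 exceeded that of Bmp7 by 1.46 and 1.58.

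Bmp5, the nearest relative of Bmp7, was not above the floor in either array. Its 3 probe sets read 20.9, 1.33 and 0.443 in the control pool against 26.5, 2.09 and 1.33 without Hand2. No fold is given for values this dim.

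**Figure D2:**
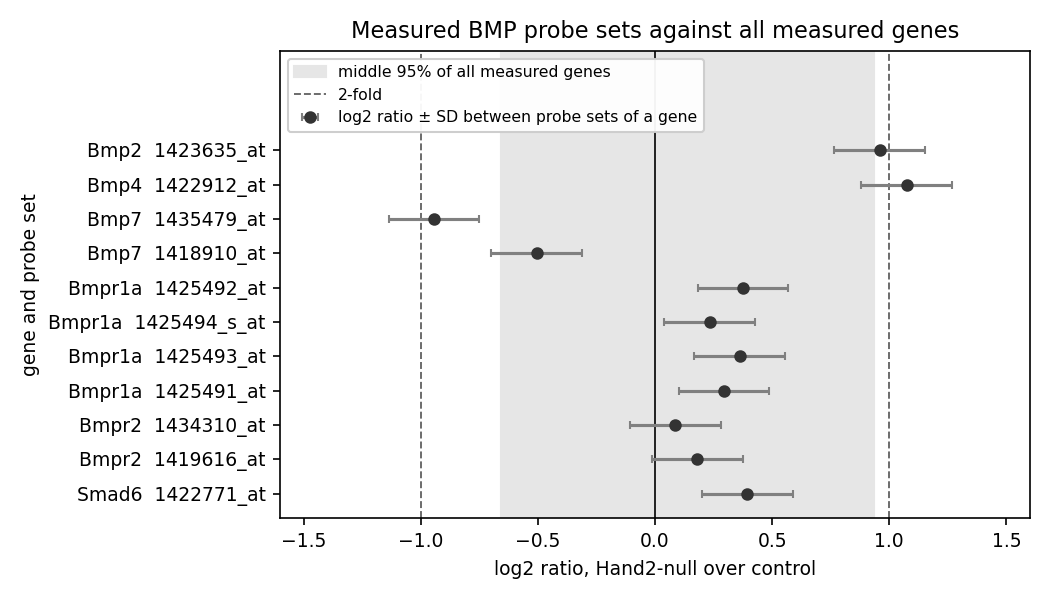
The log2 ratio of Hand2-null over control is plotted for the 11 measured BMP probe sets, with bars of the standard deviation of 0.19 between probe sets of a gene, which holds no variation between mice. The grey band is the middle 95% of all measured genes, from -0.66 to 0.93, and the points of Bmp2, Bmp4 and 1 probe set of Bmp7 lie outside it.

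The receptors differed less than the ligands. All 6 measured receptor probe sets had higher signals in the Hand2-null pool, with log2 ratios from 0.09 to 0.38. They belong to 2 genes, 4 to Bmpr1a and 2 to Bmpr2, and probe sets of 1 gene are not independent of each other. Among measured probe sets of all genes 45.8% were higher, and among measured genes 44.7% were. None of the 6 receptor probe sets was outside the middle 95% of measured genes.

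Bmpr1a, the type I receptor also called ALK3, had the most probe sets. Its 4 measured ones had control signals of 604, 190, 133 and 94.3 and Hand2-null signals of 783, 224, 171 and 116, in the same order. These give log2 ratios of 0.38, 0.23, 0.36 and 0.29, or 1.30-fold, 1.18-fold, 1.28-fold and 1.23-fold higher. The 4 probe sets of this transcript thus gave nearly the same ratio over a wide range of brightness. A ratio at least as high as that of the brightest was found in 11.8% of measured genes. The remaining 2 probe sets were under the floor, reading 21.2 and 8.64 in control cells against 25.5 and 5.24 in Hand2-null cells.

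Bmpr2, the type II receptor of the BMPs, read 1074 and 1141 by its bright probe set, giving a log2 ratio of 0.09. A second probe set, 1419616_at, read 86.3 and 97.9, for a log2 ratio of 0.18, and both ratios are smaller than the spread of 0.19 between probe sets. The third was under the floor, at 16.1 and 18.7. Bmpr1b, the other type I receptor with a preference for BMPs, was not above the floor by any of 3 probe sets, which read 15.6, 2.18 and 2.04 in the control pool against 25.1, 6.72 and 9.03 without Hand2. Of the type I receptors among the 10 genes, Bmpr1a is therefore the one with a measured transcript in both pools.

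Of the inhibitors, Smad6 had signals of 115 and 151, 1.31-fold higher in the Hand2-null pool with a log2 ratio of 0.39. Its signals were 1.79 and 2.23 times the floor, which places it in the lowest quartile of signal, where 16.0% of genes had a ratio at least as high. It is measured by 1 probe set, 1422771_at. Gremlin 1 and noggin, the secreted antagonists, were each read by 1 probe set under the floor. Grem1 had signals of 8.34 and 14.0, and Nog had 11.4 and 15.8. A transcript of either was not detectable above the floor in these pools, which does not show that it was absent.

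**Figure D3:**
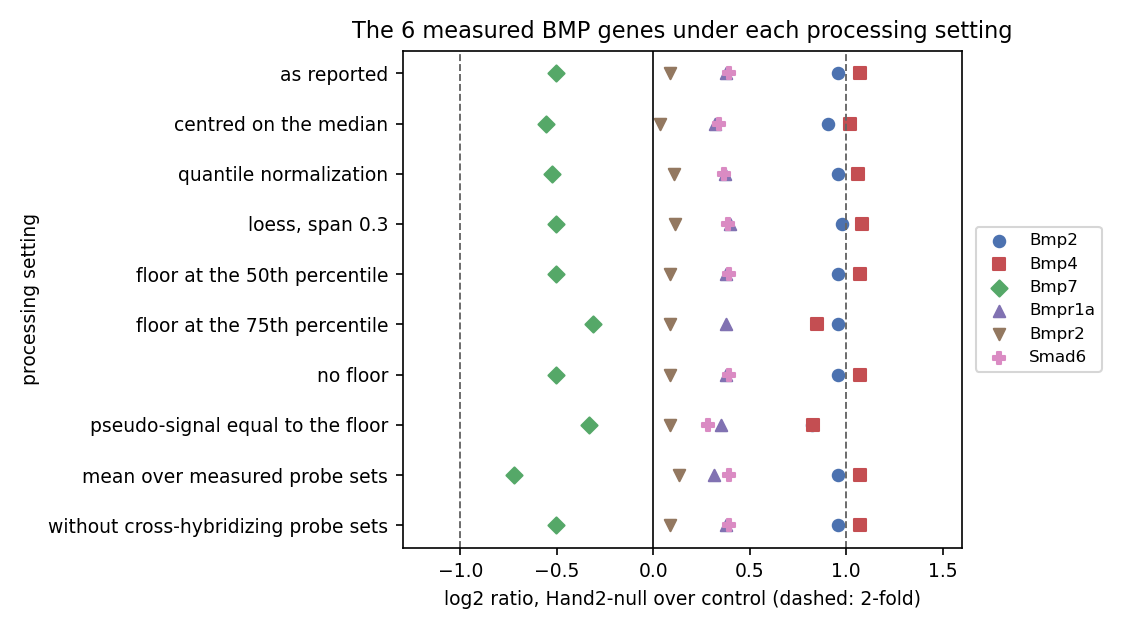
Each symbol is the log2 ratio of 1 of the 6 measured genes under the setting named on the vertical axis, and dashed lines mark 2-fold. All stay on the same side of 0. The symbol of Bmp4 crosses to 0.85 with the higher floor, where Smad6 was not measured, and to 0.83 with the pseudo-signal, where it covers that of Bmp2.

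The other genes of the BMP pathway were read from 6 lists with 66 genes, of which 61 were on the array and 40 measured. In the Hand2-null pool 24 of these were higher and 16 lower, where 44.7% of all measured genes were higher, and their median log2 ratio was 0.10 against -0.03 for all measured genes. At least 2-fold higher were 3 of 40, Rgma, Chrdl2 and Id4, beside 1.99% of all genes, and 1 of 40, Fst, was at least 2-fold lower, beside 0.742%. The pathway as a whole was therefore mixed in direction.

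Among 8 other ligands on the array, 1 was measured. Gdf10, a BMP3-like factor, read 903 and 581, giving a log2 ratio of -0.64, so it was lower along with Bmp7. The remaining 7 were under the floor.

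Of the 8 other receptors and co-receptors that were measured, 4 were higher and 4 lower, where 44.7% of all measured genes were higher. The median log2 ratio was 0.00, or 0.12 with probe sets averaged. Eng and Acvr2a, named with their values in view, count as higher and lower at only 0.0009 and -0.002. Their second probe sets were at 0.12 and 0.13, so the even split is not a measured balance. Tgfbr3, or betaglycan, a co-receptor that also binds TGF-beta, read 2110 and 2722, giving a log2 ratio of 0.37. Neo1, neogenin, a receptor of repulsive guidance molecules, read 922 and 642, for a log2 ratio of -0.52, but its other measured probe sets ranged from -0.84 to 0.29. Rgma, a repulsive guidance molecule that acts as a BMP co-receptor, read 69.6 and 165, for a log2 ratio of 1.25. The control signal of Rgma was barely above the floor, and a floor at the 75th percentile brings its log2 ratio to 0.02. Acvr1 and Acvrl1, the remaining BMP type I receptors, and Rgmb, a relative of Rgma, were chosen with their values in view. Acvr1 had a log2 ratio of 0.43. Acvrl1, or ALK1, had one of -0.13, which is smaller than the spread of 0.19 between probe sets. Its second probe set was at 0.47, so the direction of Acvrl1 is not settled. Rgmb had a log2 ratio of -0.50, opposite to that of Rgma.

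Secreted and membrane antagonists were split, with 5 higher and 4 lower of 9 measured, where 44.7% of all measured genes were higher. The median of these antagonists was 0.10. Fst, follistatin, which binds activins and, less tightly, BMPs, had signals of 754 and 235, and its second probe set was lower too, with log2 ratios of -1.68 and -1.98. Chrdl2, a chordin-like antagonist, was under the floor at 46.3 in the control pool and read 224 in the Hand2-null pool, which is at least 3.49-fold higher by its 1 measured probe set. A floor at the 75th percentile shrinks that bound to a log2 ratio of 0.46. The brightest antagonists, Fstl1 and Nbl1, had log2 ratios of 0.10 and 0.15, so follistatin and chordin-like 2 lay on opposite sides while the bright ones differed by less than the spread between probe sets. Gremlin 1 and noggin add no measured value to this group.

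Enzymes that cut BMP precursors or free BMPs from chordin showed 2 higher and 2 lower of 4 measured, where 44.7% of all measured genes were higher. Pcsk5, a proprotein convertase, read 2805 and 1980, giving a log2 ratio of -0.50, with a second probe set at -0.62. Bmp1, a metalloprotease despite its name, read 517 and 543, for a log2 ratio of 0.07, with a second probe set at -0.04.

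Among Smads and their regulators 7 were higher and 3 lower of 10 measured, where 44.7% of all measured genes were higher. The median of the list was 0.12 and 0 were past 2-fold, beside 1.99% of all genes higher and 0.742% lower. Zeb2, named with its values in view, counts as higher at 0.10, but its other probe sets ranged from -0.40 to 0.06. Smad1, a BMP-activated Smad, read 1757 and 1518, giving a log2 ratio of -0.21, with its other probe sets from -0.33 to -0.28. Smad4, the shared partner, read 1320 and 1455, for a log2 ratio of 0.14. Smad7, the other inhibitory Smad, named after its value was seen as the partner of Smad6, read 177 and 232, giving a log2 ratio of 0.39. That of Smad6 was 0.39 too, but each rests on 1 probe set. With a spread of 0.19 between probe sets of a gene, so close a match carries no meaning.

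Of 8 measured BMP target genes 6 were higher and 2 lower, where 44.7% of all measured genes were higher, and their median log2 ratio was 0.32. Id4, an inhibitor of basic helix-loop-helix factors, read 253 and 824, giving a log2 ratio of 1.70, and its other 2 probe sets were higher by 1.34 and 1.67. Id2 read 1048 and 1408, for a log2 ratio of 0.43 with other probe sets from -0.01 to 0.63, and Id3 read 971 and 1168, for a log2 ratio of 0.27. Id1, the most used readout of BMP signalling, named after its value was seen to complete the family, read 604 and 783, for a log2 ratio of 0.37. By the probe set that stands for each gene, all 4 Id genes were thus higher in the Hand2-null pool, as were Smad6 and Smad7, and Id4 had the largest ratio of them. The remaining targets, homeobox genes and the Hey1 repressor, are added here, chosen with their values in view, so that the list is whole. Dlx5 and Msx1, the lower ones, had log2 ratios of -0.11 and -0.06, with the second probe set of Msx1 at 0.08. Msx2 had a log2 ratio of 0.23 near the floor, and Hey1, under the floor in the control pool, was at least 1.43-fold higher. Apart from Id4, no target was past 2-fold, so the differences of the homeobox genes were small in either direction.

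Genes of decidualization were taken as the last list, since BMP2 acts in that process. Of 10, 5 were measured, and 3 of them were higher, 2 lower and 0 past 2-fold, around a median of 0.22 on the log2 scale. The 2 brightest, Gja1, the gap junction protein connexin 43, and Fkbp4, a progesterone receptor chaperone, had log2 ratios of -0.07 and -0.29. Other probe sets of Gja1 ranged from -0.33 to 0.36. The 3 higher genes, Ptgs2, Wnt4 and Fkbp5, were named with their values in view so that all measured ones are given. Their log2 ratios were 0.57, 0.55 and 0.22, and the second probe sets of Ptgs2 and Wnt4 were at 0.34 and 0.56.

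**Figure D4:**
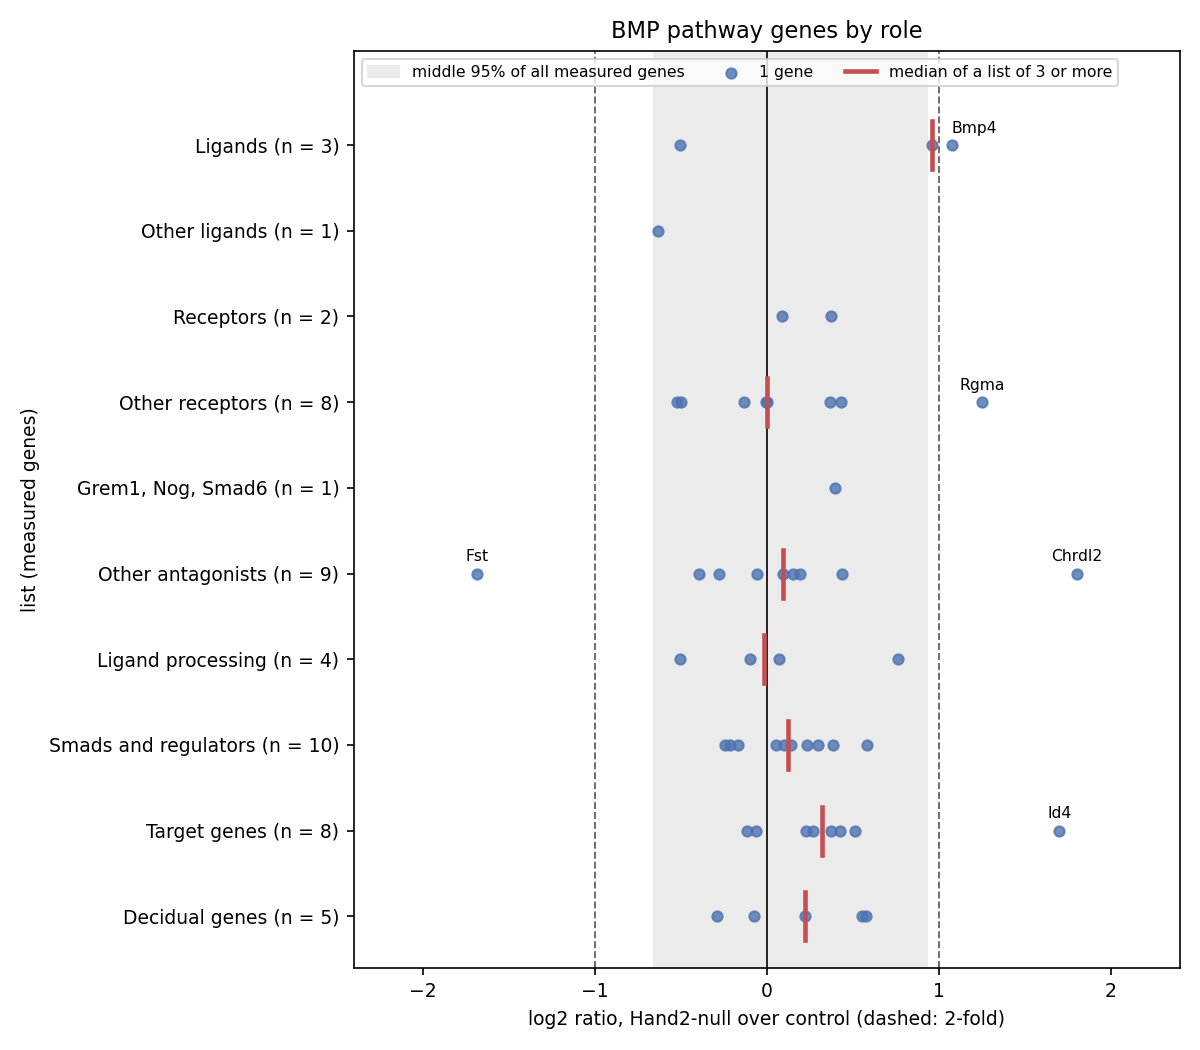
Each point is the log2 ratio of Hand2-null over control for 1 measured gene, in rows by role, with a red bar at the median of lists of 3 or more genes. The grey band is the middle 95% of all measured genes, dashed lines mark 2-fold, and the genes past 2-fold, Bmp4, Rgma, Chrdl2, Id4 and Fst, are named.

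Beside these values the 2 pools differed in markers of other cell types. As background to the counts, 44.7% of all measured genes were higher in the Hand2-null pool and 1.99% at least 2-fold higher. By the probe set that stands for each gene, all 12 smooth muscle markers read higher in the Hand2-null pool, 10 by 2-fold or more, and their median log2 ratio was 1.39. In 1 of them, Synpo2, the other measured probe sets were lower, at -0.47 to -0.25. Of the 11 markers above the floor in both pools Cnn1 had the largest difference, 4.06-fold, while Myocd, under the floor in the control pool, was at least 2.41-fold higher at 34.3 and 155. The summed signals were 20497 in the control and 45956 in the Hand2-null pool. Of 7 mesothelial markers 6 were higher, and the signals summed to 989 and 1548. As 4 of the 7 were under the floor in the control pool, their ratios and the median of 0.82 are lower bounds. Wt1, the brightest and the 1 lower marker, read 633 and 541, and without it the sums were 356 and 1007. Handling genes (immediate-early and heat-shock) had 11 of 12 higher, a median of 0.47 and sums of 33992 and 43077. Bmp2, Bmp4, Id4, Rgma and Chrdl2 lay on the same side as these lists and Bmp7, Gdf10 and Fst on the other, and their part in the BMP values was not tested.

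Of the labelled cell type, 11 of 11 stromal markers were measured in the pools, 6 higher and 5 lower with a median of 0.07. They ranged from -0.68 for Hoxa11 to 0.98 for Col1a1, so the median does not stand for each gene. The lower ones were Hoxa10, Hoxa11, Pdgfra, Thy1 and Vim. Col1a1, Col1a2, Col3a1, Dcn, Lum and Pdgfrb were the higher ones. Epithelial markers were also measured, 13 of 13 on the array, 9 higher and 4 lower with a median of 0.16, although epithelial clumps had been removed. Endothelial markers were 2 higher and 6 lower of 8 with a median of -0.24, and they were far apart, Cldn5 being 2.94-fold higher and Cdh5 2.16-fold lower. Macrophage markers, 2 higher and 3 lower, had a median of -0.05, and natural killer and T cell markers, 1 higher and 3 lower, one of -0.26. Of the last group 4 of 6 were measured, and of the macrophage markers 5 of 6. The cell type in which each BMP transcript lay is not known from these pools.

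**Figure D5:**
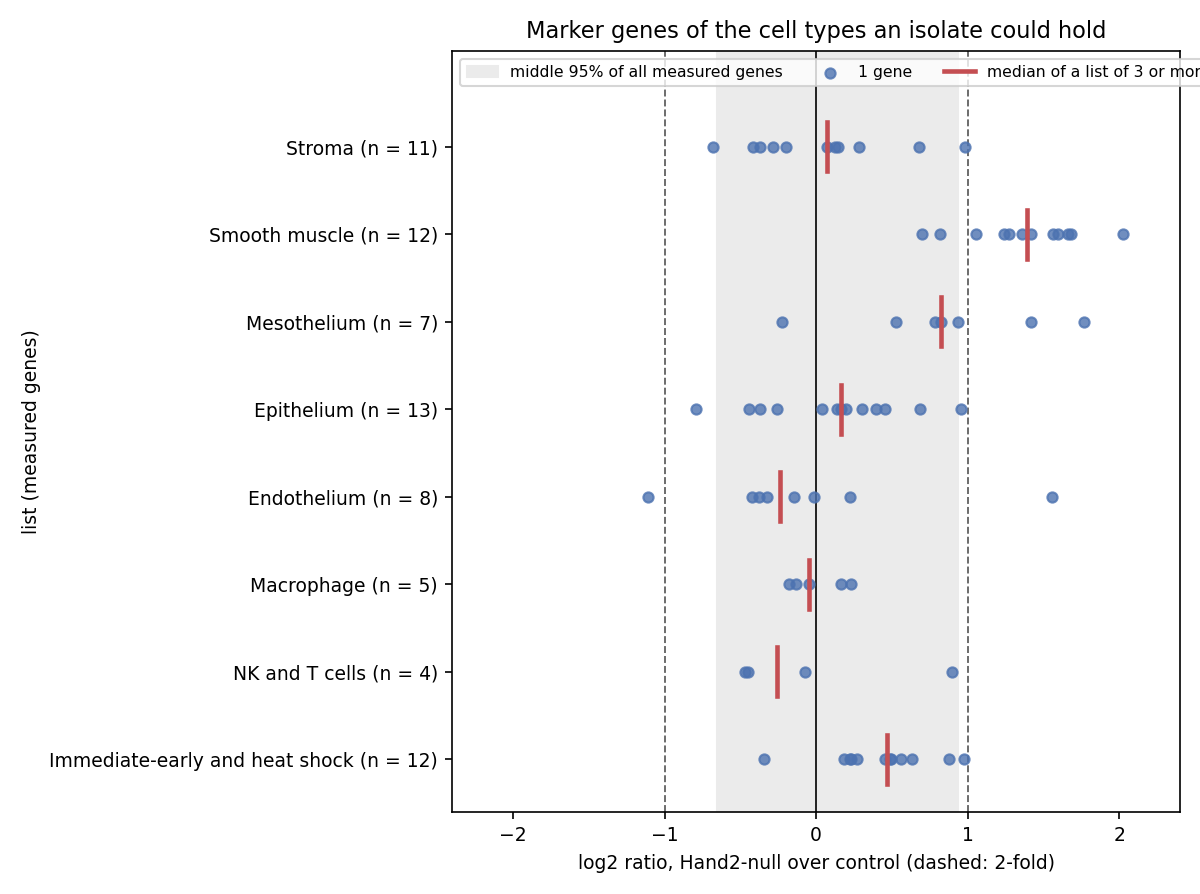
Each point is the log2 ratio of Hand2-null over control for 1 measured marker gene, in rows by cell type, with a red bar at the median of the row. By the probe set that stands for each gene, the smooth muscle row lies wholly to the right of 0 with a median of 1.39, whereas the stromal row is spread around a median of 0.07.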

How the data were processed

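RNA pools of uterine stromal cells, 1 per genotype, were hybridized to an Affymetrix mouse array from 100 ng of total RNA, per the labels' protocols. The cells had been loosened with enzymes, filtered and left to attach to plates. The authors deposited MAS5 signals, an intensity on a linear scale. The submitters' processing notes name Affymetrix Expression Console, version 1. With 2% trimmed from both tails, the 2 arrays have the same mean signal of 150.001, so they were scaled to it. Detection calls were not used here, and MAS5's subtraction of mismatch probes makes ratios of dim probe sets unsteady. Precision is limited by the number of arrays.

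Of 45101 probe sets, 64 controls were left out. Gene names came from the platform annotation, updated by Entrez ID through RefSeq (GRCm38.p6), with 932 probe sets naming several genes and 9160 none listed. Signals under the floor, the 60th percentile, were set to it before log2 was taken. Each gene was represented by its brightest probe set (mean log2 signal), and a gene was counted as different past 2-fold. A fold against a floored signal is a bound. No test was made. As a stand-in for technical error, the pooled standard deviation of the log2 ratio between probe sets of a gene was 0.19 over 3665 genes, from 0.24 in the lowest quartile of signal to 0.17 in the highest.

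The genes, lists and rules were chosen with earlier results of these data known. Named were the 10 members with every probe set, Hand2, and in each pathway list the genes past 2-fold and the 2 brightest by mean log2 signal. Exceptions are marked. With 2 arrays a pattern is 1 ratio, so no gene was named for a like pattern. A comparison of protein sequences between the members was planned and not made, as no protein sequences were used here. The procedure was tested on simulated data, with the same noise at every brightness and no variation between mice. That run therefore cannot speak to dim probe sets or to differences between pools. Python 3.11.15, pandas 2.3.3, numpy 2.4.6, statsmodels 0.14.6, scipy 1.17.1 and matplotlib 3.10.9 were used.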

Additional observations from a re-analysis of the deposited data

How the results depend on the processing

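Under 9 alternative settings (loess with a span of 0.3, quantile normalization, median centring, no floor, a floor at the 50th or the 75th percentile, an added pseudo-signal of the size of the floor, averaging of probe sets, and omission of probe sets that can cross-hybridize), the log2 ratios of the 6 measured BMP genes kept their sign wherever they could be computed. Some of these settings could not move them. The probe sets standing for the 6 genes were above the floor and not of the cross-hybridizing kind. No floor, the 50th-percentile floor and the omission therefore returned the reported ratios. Averaging could not move Bmp2, Bmp4 or Smad6, which have 1 measured probe set each. Smad6 was not measured with the floor at the 75th percentile. Bmp2 ranged from 0.82 to 0.98, Bmp4 from 0.83 to 1.08, Bmp7 from -0.72 to -0.31, Bmpr1a from 0.32 to 0.40, Bmpr2 from 0.03 to 0.13 and Smad6 from 0.29 to 0.39. The median of all genes stayed between -0.09 and -0.02. The count of BMP genes at least 2-fold higher, 1 as reported, was 0 with a 75th-percentile floor, with the pseudo-signal and at a threshold of 3-fold, and 2 at 1.5-fold. Of the other pathway genes, 3 of 40 higher as reported became 1 of 34 with a 75th-percentile floor, where 1.56% of all genes were, and 9 of 61 with no floor, where 9.05% were. Without probe sets that can cross-hybridize 2 of 34 were higher, where 2.09% of all genes were, and with the pseudo-signal 2 of 40, where 1.14% were. Lower were 1 of 40 as reported and 4 of 61 with no floor, where 8.94% of all genes were. At 1.5-fold 2 of 40 were lower, where 3.34% of all genes were, and 4 of 40 were higher, where 6.21% were. The median of other receptors was 0.37 without probe sets that can cross-hybridize, and that of mesothelial markers 1.42 with the floor at the 50th percentile or none. No array could be left out and no paired analysis was possible because each genotype has 1 array. Signals under the floor, which hold Bmp5, Bmpr1b, Grem1 and Nog, limit what can be said of those genes. All of this rests on 2 arrays.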
